A study of Mus musculus with 18 samples.

Results

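These data concern 1235 regions of the mouse genome that carried a peak of acetylated histone H3 (H3Ac) in Rb-deleted fibroblasts, with no overlapping H3Ac peak in control fibroblasts and no overlapping peak of H3K4me3 in either. They were chosen by measured values. Each is a peak of the Cre H3Ac list on chromosomes 1 to 19 with a score of at least 100 that shared no base with a peak of the GFP H3Ac list or of either H3K4me3 list. They make up 1235 of the 42660 peaks of the Cre H3Ac list, and are called Cre-only distal H3Ac peaks below. The score is the peak caller's own value for a peak, for which the deposited lists give no unit. It may be a measure of significance rather than of enrichment, and strong and weak peaks below mean peaks of high and low score only.

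The cells were mouse embryonic fibroblasts of a mixed B6;129 background in which Rb, the retinoblastoma gene, can be deleted on demand. Rb encodes a tumour suppressor that restrains the cell cycle. In the Cre group an adenovirus carrying Cre recombinase was used to delete it. The GFP group received an adenovirus carrying green fluorescent protein as a control. Neither group received the reprogramming construct labelled 4F, and both were expanded for at most 3 passages. The cells were infected in bulk, and the sources used here do not say in what share of the Cre cells Rb was lost. Each of the 4 histone marks had 1 library per group, labelled biological replicate 3, so that differences between the groups cannot be set against replicate spread and have no p-value. Values in brackets are 95% intervals, log-normal where 2 shares are divided and otherwise exact binomial, or order-statistic for medians. They hold counting error alone and take each peak as independent of its neighbours. Positions are in build NCBIM37, counted from 1.

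Acetylation of histone H3 loosens the hold of nucleosomes on DNA and occurs at active promoters and at enhancers, regions that act on a promoter from a distance. H3K4me3 marks promoters, so that an H3Ac peak without it is most often looked for among enhancers. H3K27me3 is laid down by Polycomb repressive complex 2 over silent genes, and acetylation at the same lysine of H3 excludes it on a single histone tail. The H3Ac antibody is labelled with no single lysine, so that these peaks do not report on that lysine alone.

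Of the 41827 autosomal Cre H3Ac peaks, 6455 had no GFP counterpart, 1819 of these scored at least 100, and 1235 of these lay outside H3K4me3. Another 3856 peaks met every condition except the score. Among autosomal Cre H3Ac peaks of score 100 or more, 5.87% had no GFP counterpart, and outside H3K4me3 the share was 11.1%. The mirror rule, applied to the GFP list, found 4941 GFP-only distal peaks, 30.5% of the distal GFP peaks of that score. The GFP H3Ac list was longer, with 47904 autosomal peaks over 88.1 Mb, against 41827 over 74.5 Mb in the Cre list. A longer list leaves more of its own peaks unmatched, so that 30.5% and 11.1% are not directly comparable. A further 9932 distal Cre peaks of score 100 or more overlapped a GFP H3Ac peak and are called shared distal peaks. These last sets serve as the comparison throughout.

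The Cre-only distal peaks had low scores and were narrow. Their scores ran from 100.02 to 581.06 with a median of 125.2 and quartiles of 110.3 and 152.2, against a median of 195.0 for shared distal peaks. Scores below 150 made up 74.0% of them and 32.2% of the shared peaks, and 109 scored 200 or more. Their median width was 1258 bases, with quartiles of 1103 and 1476.5, against 1608 bases for shared and 1448 bases for GFP-only distal peaks. Members just inside the minimum scored 100.02, 100.10 and 100.15, on chromosome 11 from 5691625 to 5693260, chromosome 9 from 31828703 to 31829720 and chromosome 12 from 80742059 to 80743165. The peaks just outside it scored 99.98, 99.98 and 99.97, on chromosomes 1, 10 and 7, so that the minimum divides a dense run of scores.

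The highest-scoring member, at 581.06, was also the widest, and its 3870 bases on chromosome 5 ran from 107417600 to 107421469. Its nearest H3K4me3 peak lay 22375 bases away and its nearest GFP H3Ac peak 3339 bases away. The next, on chromosome 5 from 46065368 to 46067230, scored 472.34 and lay 2555 bases from H3K4me3. The member on chromosome 10 from 80879947 to 80881437 scored 454.98 and lay 226 bases from a GFP H3Ac peak. Of the 10 highest-scoring members, 7 lay within 10 kb of an H3K4me3 peak, 8 had a GFP H3Ac peak within 5 kb, and 0 overlapped H3K27me3 of either library. Over all members these shares were 34.3%, 44.1% and 4.78%, so that 0 of 10 on H3K27me3 is of little weight.

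Others of these 10 lay within 1 kb of both a GFP H3Ac peak and an H3K4me3 peak. A member of 3300 bases on chromosome 9, from 90160301 to 90163600, scored 430.23 and lay 43 bases from a GFP H3Ac peak and 69 bases from H3K4me3. Those on chromosome 17 (13204815 to 13208087, 3273 bases) and chromosome 4 (149947508 to 149950405) scored 381.03 and 400.56 and lay 100 and 311 bases from H3K4me3. Isolation from both marks was seen at 2 of the 10. On chromosome 2 from 61191314 to 61192936 the score was 407.96 and the nearest GFP H3Ac and H3K4me3 peaks lay 46253 and 46753 bases away. On chromosome 4 from 107657128 to 107658883 the score was 422.51 and these distances were 12516 and 43946 bases. The remaining members of the 10, on chromosome 10 from 39342888 to 39345747 and chromosome 11 from 51494293 to 51496417, scored 412.72 and 390.23 and lay 7126 and 4188 bases from H3K4me3.

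The label of acetylation found in Cre cells only holds for the peak lists and less firmly for the regions. A GFP H3Ac peak lay within 1 kb of 204 members, 16.5% (14.5 to 18.7), and within 10 kb of 721, 58.4%. Of those 204 neighbouring GFP peaks, 167 overlapped a Cre H3Ac peak themselves, so that at these places the member sat beside a region acetylated in both libraries. The median distance to GFP H3Ac was 6587 bases, with quartiles of 1877 and 19384.5. The other 514 members, over 10 kb from any GFP H3Ac peak, had a median score of 124.9, against 125.7 for those within 1 kb. A region just short of the authors' threshold in the GFP list counts here as having no GFP peak. When only GFP peaks of score 100 or more counted as counterparts the number of members rose to 2394.

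The distance to H3K4me3 was asked for next, since it sets promoter-near against promoter-far acetylation. Members lay at a median of 18578 bases from the nearest H3K4me3 peak of either library, with quartiles of 6256 and 48274.5, and the range ran from 2 to 810042 bases. Within 10 kb of H3K4me3 were 424 members, 34.3% (31.7 to 37.1), where 34.5% of all distal Cre peaks of that score were. The ratio to shared distal peaks was 0.995 (0.917 to 1.08), within counting error of no difference. Within 100 kb the share of members was slightly lower, at 88.3% against 91.0% of shared peaks, with intervals that did not overlap. GFP-only distal peaks lay farther away, at a median of 24191 bases, and 27.8% (26.6 to 29.1) of them had H3K4me3 within 10 kb. At scores of 100 to 150 the share within 10 kb was 33.4% (30.3 to 36.5) of members and 29.2% (27.5 to 31.0) of GFP-only peaks. These intervals overlap, as do those at 150 to 200. At 200 and over the shares were 40.4% (31.1 to 50.2) and 24.6% (22.2 to 27.1). Close to H3K4me3 the contrast was wider, with 7.45% (6.05 to 9.06) of the members and 3.36% (2.87 to 3.90) of the GFP-only peaks within 1 kb.

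**Figure D1:**
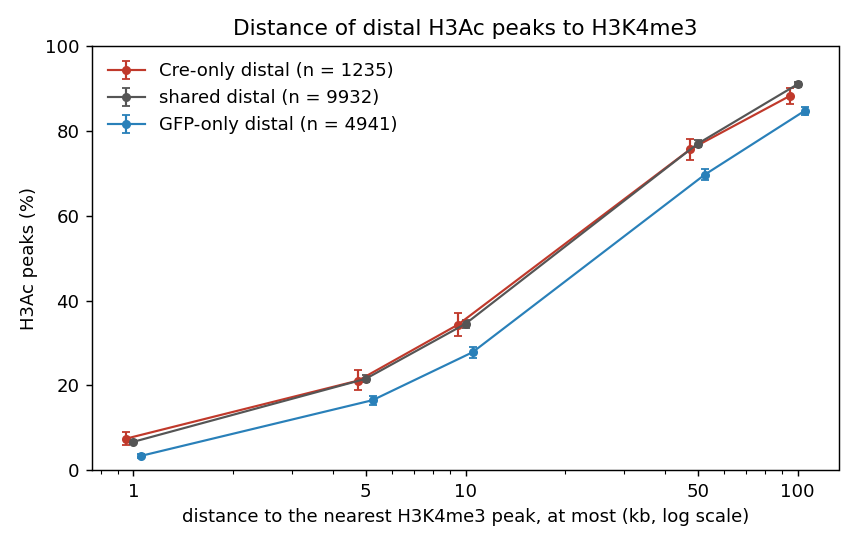
Share of distal H3Ac peaks (%) that have an H3K4me3 peak of either library within 1, 5, 10, 50 and 100 kb (log axis), for Cre-only, shared and GFP-only distal peaks. Bars are exact 95% binomial intervals, points are set slightly apart, and the Cre-only and shared curves lie together at 34.3% and 34.5% within 10 kb while the GFP-only curve lies below at 27.8%.

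The 3 members nearest to it nearly touched H3K4me3. They lay 2, 5 and 16 bases from it, on chromosome 2 from 173562068 to 173562970, chromosome 2 from 150835179 to 150836064 and chromosome 7 from 148623565 to 148625446, with scores of 128.41, 117.80 and 257.99. At the other end, the members on chromosome 2 from 47857001 to 47858163, chromosome 6 from 104383969 to 104385014 and chromosome 8 from 50641106 to 50642072 lay 810042, 784185 and 710610 bases from H3K4me3. Those 3 scored 120.23, 130.23 and 112.22, near the median of the set. Over 50 kb from H3K4me3 lay 301 members, 24.4%, and their median score of 126.3 was close to the 126.5 of the 92 members within 1 kb.

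The members were near H3K27me3 of control cells more often than other distal acetylation. A GFP H3K27me3 peak overlapped 47 of the 1235 members, 3.81% (2.81 to 5.03), where 1.27% of all distal Cre peaks of that score were overlapped. The share was 0.957% (0.775 to 1.17) for shared and 0.364% (0.216 to 0.575) for GFP-only distal peaks. The ratio to shared peaks was 3.98 (2.82 to 5.62) and to GFP-only peaks 10.4 (6.09 to 17.9). By the rule, members lack a GFP H3Ac peak, while every shared or GFP-only peak has one. H3K27me3 of the same GFP cells can depend on this, and the part of the rule in these ratios was not tested. Within 5 kb of a GFP H3K27me3 peak lay 179 members, 14.5% (12.6 to 16.6), against 6.54% of all distal Cre peaks, 5.55% of shared and 3.58% of GFP-only peaks. The members thus differed from shared peaks in their nearness to H3K27me3 while the shares within 10 kb of H3K4me3 did not differ beyond counting error.

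The difference was also seen within ranges of score. Among peaks scoring 100 to 150, 4.16% (2.96 to 5.66) of 914 members and 1.28% (0.922 to 1.74) of 3197 shared peaks overlapped GFP H3K27me3, a ratio of 3.24 (2.10 to 5.01). From 150 to 200 the ratio was 2.67 (1.17 to 6.13). At 200 and over, 2 of 109 members overlapped it, 1.83%, and the ratio of 2.93 (0.709 to 12.1) was not distinguishable from 1. With GFP H3K27me3 counted within 5 kb, the ratios in the 3 score ranges were 2.48, 1.94 and 2.26, the last with an interval of 1.27 to 4.02.

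It was seen at both short and long distances from H3K4me3. Among peaks over 10 kb from H3K4me3, 12.3% (10.1 to 14.8) of 811 members and 4.60% (4.10 to 5.13) of 6504 shared peaks had GFP H3K27me3 within 5 kb. Among those within 10 kb, the shares were 18.6% (15.0 to 22.7) and 7.35% (6.50 to 8.28). Within the members, overlap with GFP H3K27me3 went with distance from GFP acetylation. GFP H3K27me3 lay on 28 of the 514 members over 10 kb from GFP H3Ac, 5.45% (3.65 to 7.78), and on 2 of the 204 members within 1 kb, 0.980% (0.119 to 3.50). Cre H3K27me3 lay within 5 kb of 13.4% (10.6 to 16.7) and 8.82% (5.31 to 13.6) of them, with overlapping intervals. These members also differed in nearness to H3K4me3, which lay within 10 kb of 6.81% and 67.6% of them.

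H3K27me3 was found at these members in both groups of cells. The Cre H3K27me3 list overlapped 39 members, 3.16% (2.26 to 4.29), again more than the 0.765% of shared and the 0.486% of GFP-only distal peaks, with ratios of 4.13 (2.82 to 6.04) and 6.50 (3.92 to 10.8). Both lists overlapped 27 members, the GFP list alone 20 and the Cre list alone 12. Of the 47 members on GFP H3K27me3, 42.6% (28.3 to 57.8) had no Cre H3K27me3 peak, and of the 95 such shared peaks 34.7% (25.3 to 45.2), which overlap within counting error. Of the GFP H3K27me3 peaks under members, 63.8% (48.5 to 77.3) had a Cre counterpart, and of all autosomal GFP H3K27me3 peaks 68.3%. Both shares depended on the score of the GFP peak, in a split added with these results known. At or above the median score of those under members, 24 of 24 peaks under members had a Cre counterpart, against 97.3% (97.0 to 97.6) of all autosomal ones. Below it 6 of 23 had one, 26.1% (10.2 to 48.4), against 55.2% (54.5 to 55.8), and scores were not matched further within these ranges.

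H3K27me3 peaks found in 1 library only were counted next. GFP-only H3K27me3 peaks lay within 5 kb of 100 members and Cre-only ones within 5 kb of 35, a ratio of 2.86 (1.93 to 4.33). For shared distal peaks the numbers were 290 and 102, a ratio of 2.84 (2.26 to 3.60). The GFP-only H3K27me3 list was longer on the autosomes, with 10811 peaks against 6662. An excess of H3K27me3 lost over H3K27me3 gained near members, beyond that near shared peaks, was therefore not detectable. Near GFP-only distal peaks the ratio was lower, 73 to 55, or 1.33 (0.923 to 1.92).

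**Figure D2:**
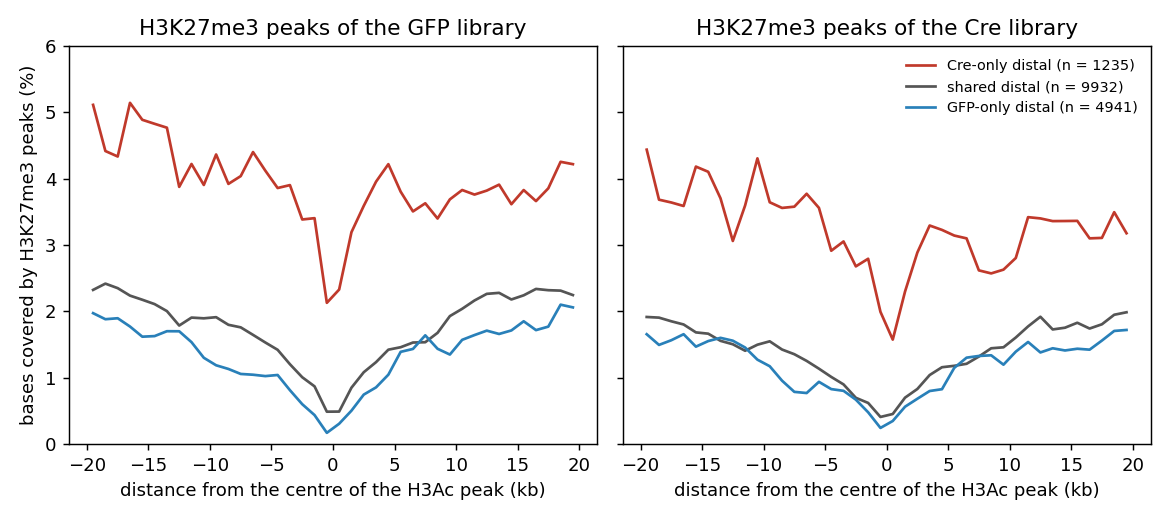
Percent of bases covered by H3K27me3 peaks of the GFP library (left) and of the Cre library (right) in bins of 1 kb up to 20 kb on either side of the centre of Cre-only, shared and GFP-only distal H3Ac peaks. Around the Cre-only peaks coverage is higher at every distance shown, and every curve dips at the centre, for the Cre-only peaks to between 2.13% and 2.33% in GFP cells.

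H3K27me3 coverage was lowest over the members themselves. GFP H3K27me3 covered 2.13% and 2.33% of the bases in the bins just before and just after the centres of members, and 5.11% and 4.22% of those in the outermost bins, at 20 kb. For shared peaks the central bins held 0.490% and 0.492% and the outermost 2.32% and 2.25%. In the Cre library the central bins of members held 1.99% and 1.58%. Where a member and a GFP H3K27me3 peak overlapped, a median of 49.1% of the member was covered, and 6 of the 47 lay wholly inside the H3K27me3 peak. GFP H3K27me3 peaks lay on both sides of a member within 10 kb in 79 cases, 6.40% (5.10 to 7.91), against 1.96% (1.70 to 2.26) of shared and 1.38% (1.07 to 1.74) of GFP-only peaks.

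The H3K27me3 peaks under members were of moderate size. Their median score was 237.7, against 132.1 for all autosomal GFP H3K27me3 peaks, and their median width 1824 bases against 1343. A wider peak is overlapped more readily by any region, and H3K27me3 peaks under shared or GFP-only distal peaks were not measured. These differences are therefore not shown to be particular to members. None of the 47 peaks under members reached 10 kb. The highest-scoring member among them, on chromosome 2 from 180303142 to 180304735 which scored 204.79, met the edge of a GFP H3K27me3 peak of 6500 bases from 180304165 to 180310664 with a score of 407.29. In the Cre library the H3K27me3 peak there scored 1484.8 but stopped 42 bases short of the member. On chromosome 15 from 88751419 to 88753417 the member scored 201.12 and the H3K27me3 peaks over it 251.39 (GFP) and 220.93 (Cre).

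On chromosome 7 from 140811918 to 140813255 a member scoring 188.97 met a weak GFP H3K27me3 peak of score 53.18, and the nearest Cre H3K27me3 lay 3451 bases away. On chromosome 17 from 83572349 to 83574122 the member scored 185.76, the GFP H3K27me3 peak 137.66, and the nearest Cre H3K27me3 peak lay 28374 bases away. On chromosome 2 from 69964252 to 69965953 the member scored 163.70 and met 2 separate H3K27me3 peaks, a GFP peak of score 137.33 and a Cre peak of score 139.05 that do not overlap each other. These 5 regions, the highest-scoring on GFP H3K27me3, divide into 3 without and 2 with a Cre H3K27me3 peak on the member. A region named after its values were seen lay on chromosome 6 from 52220186 to 52221389, where a member of score 148.84 reached into a GFP H3K27me3 peak of 9169 bases with a score of 2562.2, and the Cre peak over it scored 3100.

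The share with GFP H3K27me3 within 5 kb was graded over peaks that the choice of members left out. This comparison was added with the results above known. The 9932 shared distal peaks were divided into 5 parts of near-equal number by the rank of their Cre score minus the rank of the overlapping GFP score, over shared distal peaks alone. GFP H3K27me3 lay within 5 kb of 43 of the 1987 peaks (1.57 to 2.90%) in the part that ranked lowest in Cre relative to GFP cells, then of 4.18%, 4.43% and 6.90%, and of 10.1% (8.78 to 11.5) of the part that ranked highest. Cre H3K27me3 within 5 kb followed the same order, from 1.56% (1.06 to 2.21) to 7.15% (6.05 to 8.37). The parts differed in strength as well, with median GFP scores of 447.5, 315.2, 405.8, 263.2 and 149.1 in that order and median Cre scores of 131.3, 172.2, 251.7, 230.7 and 247.8. The part played by peak strength, depth or the control library in this order was not tested.

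**Figure D3:**
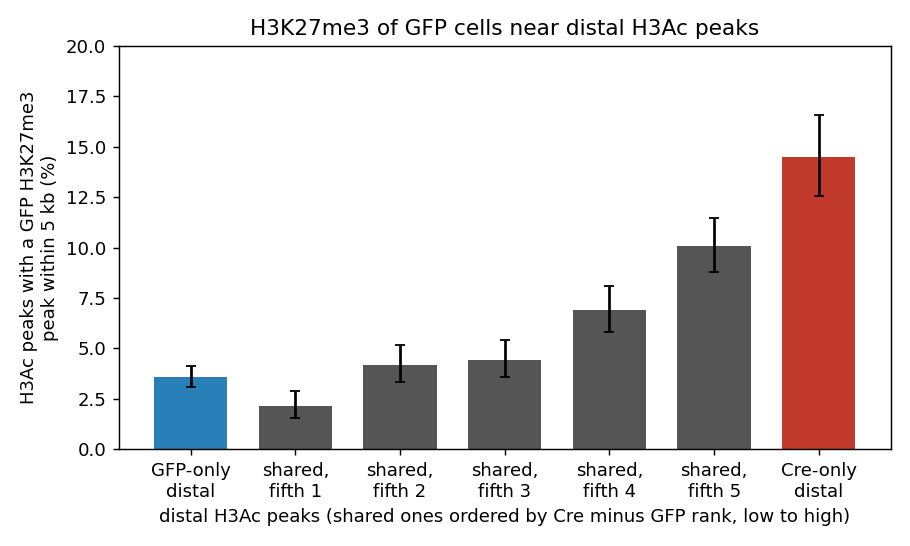
Percent of distal H3Ac peaks with a GFP H3K27me3 peak within 5 kb, for GFP-only peaks, for 5 parts of the shared peaks ordered from low to high Cre minus GFP rank, and for Cre-only peaks, with exact 95% binomial intervals. The bars rise from 43 of 1987 peaks in the lowest part of the shared peaks to 10.1% in the highest, with the Cre-only peaks above at 14.5% and the GFP-only peaks at 3.58%.

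Clustering was examined because enhancers often lie in groups. Another member lay within 50 kb of 244 members, 19.8% (17.6 to 22.1), and within 10 kb of 70, 5.67%. Linked at 50 kb, 991 members stood alone and 244 formed 112 groups, of which 98 were pairs and the largest held 6. Of the 1235 highest-scoring shared distal peaks, 46.6% (43.8 to 49.5) had another within 50 kb, and of the 1235 lowest-scoring ones 16.7% (14.6 to 18.9). For GFP-only distal peaks these shares were 24.8% (22.4 to 27.3) and 12.8% (11.0 to 14.8). The members fell between the strong and the weak ends of both sets, nearest to the weak shared peaks, whose interval overlaps theirs. The interval of the weak GFP-only peaks lies below that of the members. Members were less embedded in acetylation of their own list, with another Cre H3Ac peak within 10 kb of 58.9% (56.1 to 61.7), against 69.3% (68.4 to 70.2) of shared distal peaks. At scores of 100 to 150 these shares were 57.4% (54.2 to 60.7) and 64.9% (63.2 to 66.5). They were 61.3% and 65.5% at 150 to 200, and 67.0% and 73.7% at 200 and over, with overlapping intervals in both ranges.

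**Figure D4:**
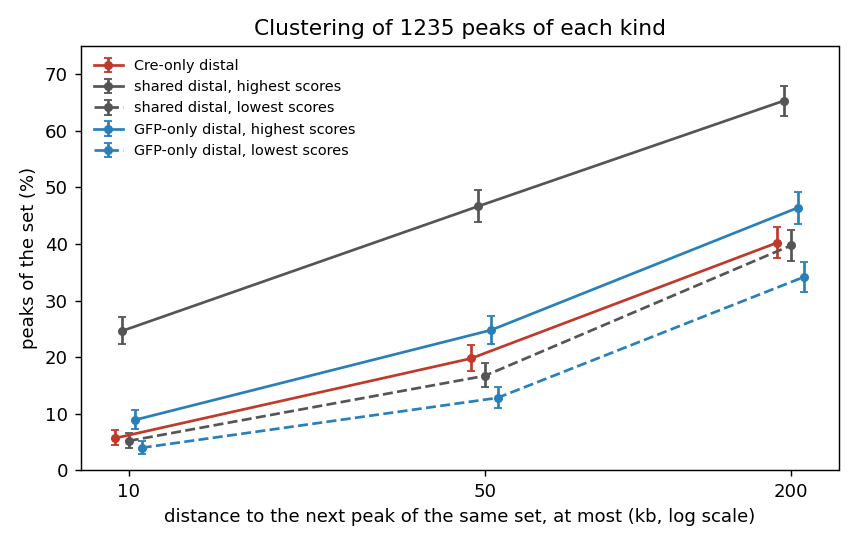
Percent of peaks with another peak of the same set within 10, 50 and 200 kb (log axis), for the 1235 Cre-only distal peaks and for equal numbers of the highest-scoring and lowest-scoring shared and GFP-only distal peaks, with exact 95% binomial intervals. At 50 kb the Cre-only peaks reach 19.8%, between the lowest-scoring (16.7%) and the highest-scoring (46.6%) shared peaks.

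The largest group held 6 members over 68.06 kb of chromosome 2, from 167555889 to 167623944. Its members scored 128.17, 110.12, 104.23, 116.42, 111.03 and 111.86 in order of position, all near the minimum. The span held 18 Cre and 10 GFP H3Ac peaks and 0 peaks of H3K4me3 or H3K27me3 in either library. The first 2 members lay 17 bases apart. The group thus lay within a stretch acetylated in both groups of cells, with more peaks in the Cre list.

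The second group was unlike the first. Its 4 members covered 21.39 kb of chromosome 11, from 117731879 to 117753265, with scores of 152.51, 176.42, 254.27 and 281.90. The span held 5 Cre H3Ac peaks, 0 GFP H3Ac peaks and 1 H3K4me3 peak in each library. The nearest GFP H3Ac peak lay between 19222 and 39277 bases from its members. A GFP H3K27me3 peak lay 13252 bases from the nearest of them, whereas the nearest Cre H3K27me3 peak lay 217089 bases or more from all 4.

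The third group, also on chromosome 11, spread 4 members over 129.7 kb from 76069191 to 76198853, with scores of 213.95, 167.61, 142.33 and 155.74. Each lay between 482 and 2753 bases from a GFP H3Ac peak, and the span held 23 Cre and 18 GFP H3Ac peaks. A further group of 3, on chromosome 9 from 34963202 to 34974839, covered 11.64 kb with 3 Cre and 0 GFP H3Ac peaks and no other mark of those examined. It was named after its values were seen. Groups of members therefore included both stretches free of GFP acetylation and stretches rich in it.

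Members were spread over all 19 autosomes, from 29 on chromosome 18 to 112 on chromosome 2. As a share of distal Cre H3Ac peaks they ranged from 7.49% (5.08 to 10.6) on chromosome 18 and 8.52% (6.39 to 11.1) on chromosome 8 to 12.6% (9.63 to 16.0) on chromosome 12 and 12.9% (10.7 to 15.4) on chromosome 11, around 11.1% over all. With 19 intervals compared, 1 chromosome whose 95% interval misses that level, chromosome 18, is of little weight.

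**Figure D5:**
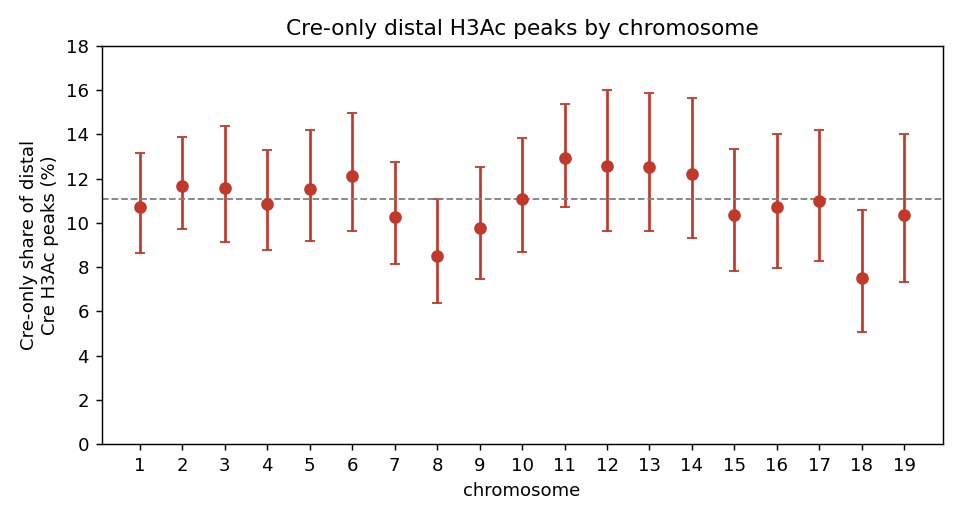
Cre-only distal H3Ac peaks as a percent of all distal Cre H3Ac peaks of score 100 or more, by chromosome, with exact 95% binomial intervals. The dashed line is the share over all autosomes, 11.1%, and chromosomes range from 7.49% (chromosome 18) to 12.9% (chromosome 11).

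The last question was whether H3K4me3 near the members also differed. The nearest autosomal H3K4me3 peak present in both libraries was taken for each member at any distance, which gave 1114 distinct peaks for 1235 members. Its percentile rank among all such peaks was compared between the lists. The median of Cre minus GFP rank was -0.83 percentile points (-2.16 to 0.02), where all 19100 shared H3K4me3 peaks had a median of -2.18 (-2.37 to -1.96). These medians are shaped by peaks at the highest scores, which tie. Peaks scoring 3100 or more in either list were then left out, and the nearest remaining peak was taken at any distance. It lay within 50 kb for 723 of the 1235 members and within 10 kb for 247. The medians were then 1.04 (0.245 to 1.65) for members and 0.19 (-0.01 to 0.41) over all such H3K4me3 peaks. They were -0.06 (-0.34 to 0.15) for shared distal peaks and -0.81 (-1.32 to -0.50) for GFP-only distal peaks. H3K4me3 ranked higher in Cre cells at 54.1% of these peaks for members and at 46.2% of those for GFP-only distal peaks. Several H3Ac peaks can have the same nearest H3K4me3 peak. Distinct ones numbered 1068 for members, 4566 for the 9932 shared and 2942 for the 4941 GFP-only distal peaks. The intervals here and below count such repeats as independent, and are too narrow where peaks repeat.

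The shift for members was small beside its spread, with quartiles of -5.58 and 9.32 without the tied peaks. For the 109 members scoring 200 or more, the median without the tied peaks was 2.64 (-1.02 to 6.30). That interval holds the 1.04 of all members. Over all shared H3K4me3 peaks, ties included, the median for these 109 was 5.16 (0.241 to 9.15). With ties included, 66 of the 109 nearest H3K4me3 peaks ranked higher in Cre cells, 60.6% (50.7 to 69.8). The share was 35.5% (34.1 to 36.8) for the 4792 shared distal peaks of that score. Without the tied peaks these shares were 58.7% (48.9 to 68.1) and 49.3% (47.9 to 50.7), whose intervals overlap. H3K4me3 and H3Ac libraries are separate, but both come from the same cells, and a difference between those cell populations that is not due to Rb cannot be told apart from one that is.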

How the data were processed

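Each of 8 histone libraries had a deposited peak list with chromosome, start, end, name and score. Per the submitters' processing notes, the build was NCBIM37 and the tools included MACS 1.4.1 and BWA, beside bedtools 2.16.2 and SAMtools 0.1.18, with no role stated for each. The histone input is labelled replicate 1 in GFP and 3 in Cre cells. Which input library served as control, the duplicate handling and the read depth are not given in the sources used here. The score in the authors' deposited lists has no stated unit, starts at 50 and recurs at 3100, and can depend on depth and control. A score of 100 therefore need not mean the same in different lists, and scores of different lists set side by side are descriptions. The 10 other samples (RNA, Rb and input) were not analysed here.

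2 peaks were counted as overlapping when they shared 1 base or more. Distances run between the nearest edges, with 1 for touching peaks. Percentile ranks were taken over peaks found in both libraries, and the median's interval is the binomial order-statistic one. The code was tested on simulated data (2000 peaks, 300 linked groups), where every distance and group came out right, and bedtools 2.31.1 gave the same 1235 members. The software was pandas 2.3.3, SciPy 1.17.1, NumPy 2.4.6 and matplotlib 3.10.9 under Python 3.11.15.

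The members and comparisons were chosen with earlier results of these data known. Named regions were, by rule, the 10 highest-scoring and 3 widest members, the 3 nearest to and farthest from H3K4me3, the 3 largest groups, the 5 highest-scoring on GFP H3K27me3, and 3 on either side of the score minimum. Gene names and sequences were not used here, because the tables at hand are on another build. A planned description of sequence content was therefore not run.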

Additional observations from a re-analysis of the deposited data

Results flagged for a closer look

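Chromosome X was outside the comparisons above, and it also held such peaks: 14 H3Ac peaks there met the rest of the rule, of 59 distal Cre H3Ac peaks of that score, 23.7% (13.6 to 36.6). Cre H3K27me3 overlapped 3 of the 14 and GFP H3K27me3 overlapped 0, on a chromosome where the Cre H3K27me3 list held 7029 peaks and the GFP list 1967. The overlap of all 59 distal Cre peaks with H3K27me3 was not counted, so that 3 of 14 has no share to be set against. The mirror rule found 35 GFP-only distal peaks on the chromosome, and their share of distal GFP peaks there was not computed. With 1 library per group, the difference from the autosomes was not tested.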

How the results depend on the processing

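The number of members, 1235, depended most on the score minimum: it was 321 at 150, 109 at 200 and 5091 with none. It was 2394 when only GFP H3Ac peaks scoring at least 100 counted, and between 1011 and 1654 under the 4 other settings. The share on GFP H3K27me3 was 14.5% within 5 kb, 1.78% with at least 50% of the member covered and 1.83% for members scoring at least 200. With the Cre list it was 3.16% and without chromosome 2 it was 3.92%, both settings added after the data were seen. Its ratio to shared distal peaks was 2.61 within 5 kb, 4.91 with at least 50% covered, 4.13 with the Cre list and 2.93 (0.709 to 12.1) at scores of at least 200, and was not computed without chromosome 2. The share near H3K4me3 was 21.1% within 5 kb, 75.6% within 50 kb and 40.4% for members scoring at least 200. The share with another member nearby was 5.67% within 10 kb, 40.2% within 200 kb, 5.50% for members scoring at least 200, and 13.5% with H3Ac peaks merged within 1 kb. The share with GFP H3Ac nearby was 44.1% within 5 kb and 12.5% for GFP peaks scoring at least 100. The median rank shift of the nearest H3K4me3 peak changed sign, to 1.04 without peaks at the highest scores and to 5.16 for members scoring at least 200. Comparison sets of lowest-scoring peaks were added after the data were seen. The read depth of the libraries, which limits every list, is unknown here.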

Other observations

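The heterochromatin mark H3K9me3 was nearly absent from all distal H3Ac peaks examined. For the Cre-only ones the GFP list overlapped 1 of the 1235 and the Cre list 0, which allows a share of up to 0.298% by the exact interval. These lists overlapped 0 and 1 of the 9932 shared distal peaks, and 2 each of the 4941 GFP-only ones. Within 5 kb of GFP H3K9me3 lay 1.38% (0.804 to 2.19) of the Cre-only and 1.15% (0.948 to 1.38) of shared distal peaks, a difference within counting error. H3K4me3 peaks found in the Cre library only lay within 10 kb of 51 members, 4.13% (3.09 to 5.39), and those found in the GFP library only within 10 kb of 29, 2.35% (1.58 to 3.36). For shared distal peaks these shares were 4.49% (4.09 to 4.92) and 2.79% (2.47 to 3.13).

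The 584 Cre-only H3Ac peaks of score 100 or more that did overlap H3K4me3 met H3K27me3 far more often than the Cre-only distal ones. GFP H3K27me3 overlapped 170 of the 584, 29.1% (25.5 to 33.0), against 3.81% of the distal ones, and Cre H3K27me3 overlapped 153. The share among H3Ac peaks at H3K4me3 found in both libraries was not computed. Whether the 29.1% is particular to Cre-only peaks is therefore unknown.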
